A study of Rattus norvegicus with 22 samples.

Results

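The 72 genes described here encode proteins of the mitochondrial ribosome, and their transcripts were measured in livers of rats given GSK932121A or vehicle. They are all the genes whose single symbol in the platform annotation begins with Mrpl or Mrps followed by a digit, out of 18166 genes measured. Of these, 45 carry a large-subunit symbol (Mrpl) and 27 a small-subunit symbol (Mrps), and each was read by a single probe set. No measured value entered this rule, but the set was chosen with earlier results of these data known. Other proteins of the mitochondrial ribosome were not analysed here unless named.

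The 22 arrays each held RNA of the median liver lobe from a single female rat of the outbred stock Crl:CD(SD), aged 12 weeks per the labels. Vehicle was given to 12 rats, and the other 10 were dosed with GSK932121A at 50 mg/kg, an inhibitor of complex III of the respiratory chain, as a single intraperitoneal dose of 10 mL/kg. Treated livers were taken at 5 hours, no time is stated for vehicle livers, and the submitters left out 2 dosed animals with low plasma exposure. The median of an array was 4.73 at the lowest and 4.85 at the highest in log2 units, values ran from 0.67 to 13.8, and 0 pairs of arrays were identical. Because each array measured 1 lobe, fewer cells of a type and less RNA per cell cannot be told apart.

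The mitochondrial ribosome translates the few proteins encoded by mitochondrial DNA, all of them membrane subunits of the respiratory chain and ATP synthase. Its own proteins are all encoded in the nucleus, made on cytosolic ribosomes and imported, and they assemble on rRNA transcribed from mitochondrial DNA. The large subunit forms the peptide bonds, and the small subunit binds the mRNA and reads its codons. Some of these proteins have bacterial homologues, whereas others are specific to mitochondria. The promoters of such genes are known for sites of nuclear respiratory factor 1 (NRF-1), of ETS factors such as the GA-binding protein (GABP) and of YY1, and coactivators of the PGC-1 family act on these factors and on related ones.

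Most of the 72 transcripts were slightly lower after GSK932121A, and few of them passed the test. The fit was limma over all genes with Benjamini-Hochberg adjustment, with an adjusted p under 0.05 counted as passing. By this rule 1 gene rose (Mrps31), 8 fell (Mrpl49, Mrpl30, Mrpl55, Mrps21, Mrpl1, Mrps15, Mrpl32 and Mrpl13) and 63 did not pass. The 9 that passed are 12.5% of the 72, against 12.4% of all genes, so the share was close to the background. Rises made up 1.39% of the members against 5.31% of all genes, and falls 11.1% against 7.05%. At an unadjusted p under 0.05 the share was 19.4% of the members and 24.0% of all genes. The difference between group means was below 0 for 60 of the 72 (83.3%), against 52.4% of all genes. The median difference was -0.10 on the log2 scale, with quartiles of -0.18 and -0.03, against a median of -0.01 over all genes. In 65 of the 72 genes the 95% interval of the difference lay within 1.5-fold in either direction, and in 26 it lay within 1.2-fold.

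**Figure D1:**
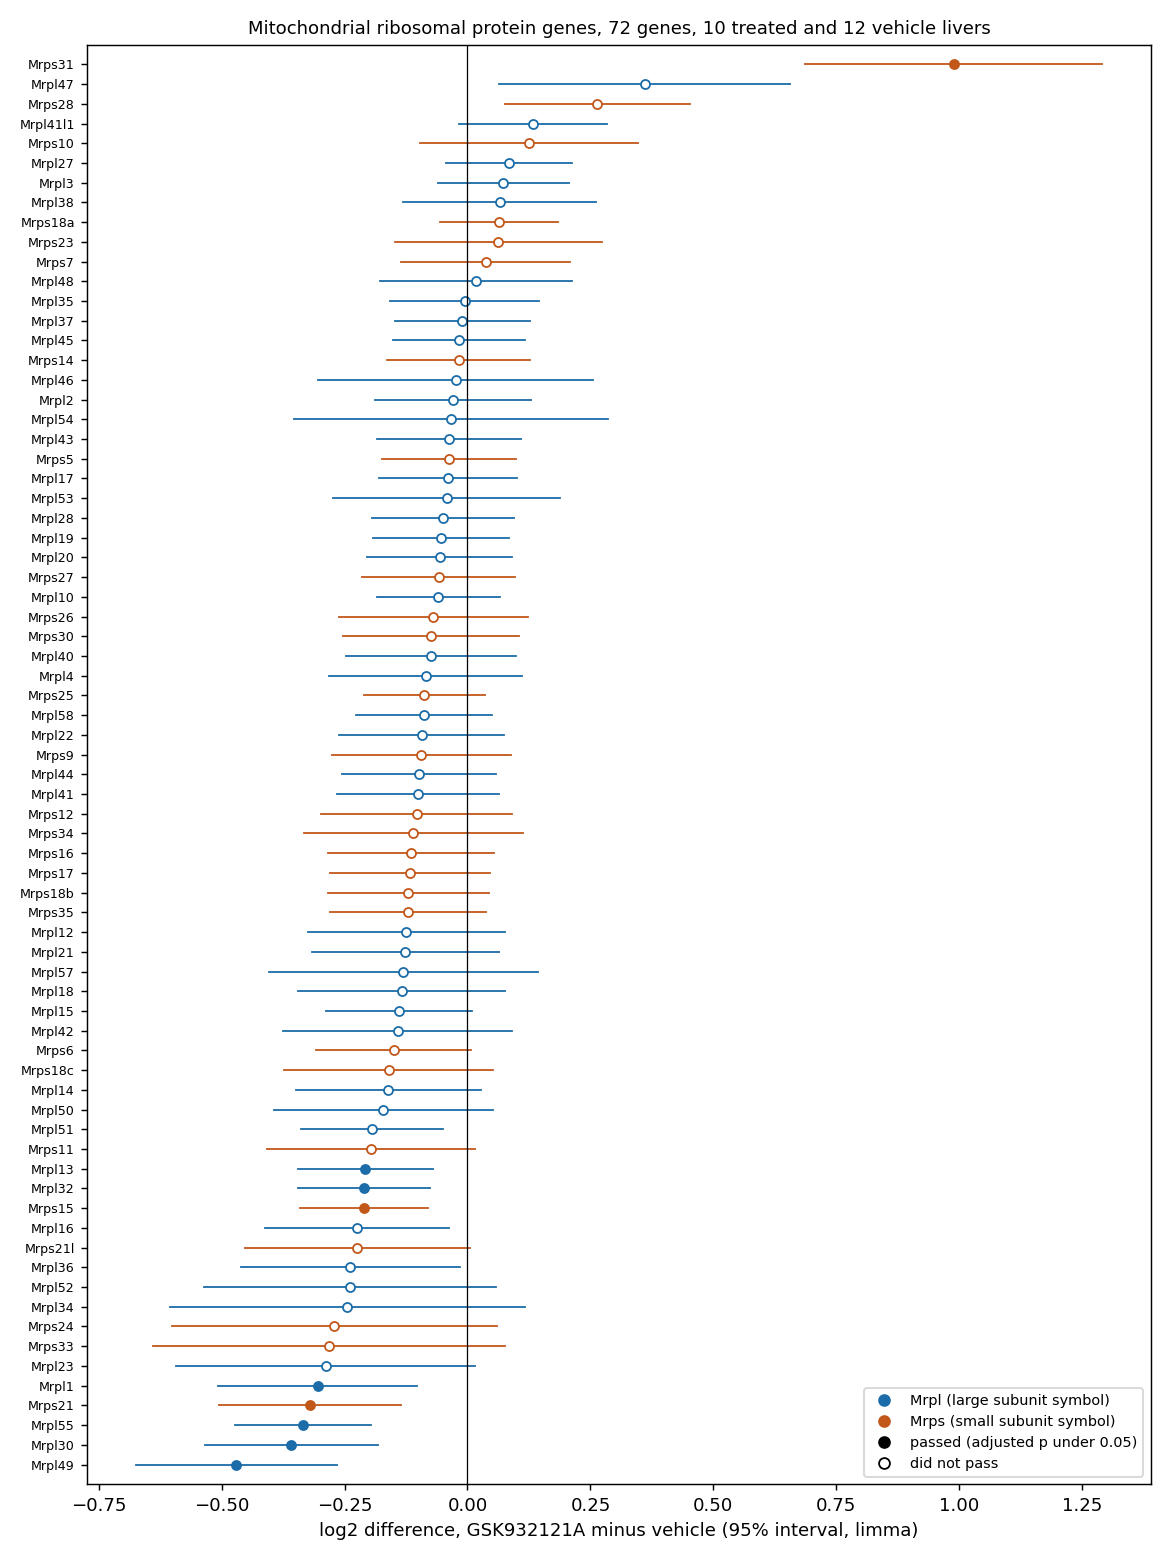
Log2 difference between GSK932121A and vehicle (x axis) for each of the 72 genes (y axis, in order of the difference), with 95% intervals from limma over 10 treated and 12 vehicle livers. Blue marks Mrpl and orange Mrps symbols, and filled points passed at an adjusted p under 0.05. Mrps31 stands alone at 0.99, and 60 of the 72 points lie below 0.

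Of the members that passed, 4 start regions are shown here, so that the single rise can be set beside the 3 falls with the smallest adjusted p. RefSeq promoter windows of GRCr8, from 250 bases before to 50 after a start of the gene, were found for 58 of the 72 genes. For Mrps31 the start used lies inside the RefSeq span of the gene (76303807-76332970), and the outer end of that span was not examined. Capitals mark matches, on either strand, to the letters searched: GCNTGCGC for NRF-1, CCGGAAG for ETS factors, AAGATGGC for YY1, TGACGTCA for the cAMP response element (CRE) and TGATGCAA for C/EBP-ATF dimers. The window of Mrps31 lies at chr16:76324016-76324315 (minus strand), that of Mrpl49 at chr1:212779278-212779577 (minus strand), that of Mrpl30 at chr9:47620977-47621276 (plus strand) and that of Mrpl55 at chr10:44488003-44488302 (plus strand).
Mrps31: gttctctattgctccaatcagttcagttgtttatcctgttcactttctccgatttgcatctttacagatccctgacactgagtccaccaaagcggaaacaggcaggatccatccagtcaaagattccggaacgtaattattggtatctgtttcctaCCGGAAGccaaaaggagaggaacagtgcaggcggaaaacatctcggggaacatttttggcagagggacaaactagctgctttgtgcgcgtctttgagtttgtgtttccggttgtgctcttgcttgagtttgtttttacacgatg
Mrpl49: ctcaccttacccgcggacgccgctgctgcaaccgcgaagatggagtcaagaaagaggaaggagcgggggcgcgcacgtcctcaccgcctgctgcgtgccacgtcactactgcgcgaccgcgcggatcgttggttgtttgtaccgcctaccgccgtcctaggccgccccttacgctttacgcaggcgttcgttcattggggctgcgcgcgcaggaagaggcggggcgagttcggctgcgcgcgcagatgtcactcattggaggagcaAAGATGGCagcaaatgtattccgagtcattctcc
Mrpl30: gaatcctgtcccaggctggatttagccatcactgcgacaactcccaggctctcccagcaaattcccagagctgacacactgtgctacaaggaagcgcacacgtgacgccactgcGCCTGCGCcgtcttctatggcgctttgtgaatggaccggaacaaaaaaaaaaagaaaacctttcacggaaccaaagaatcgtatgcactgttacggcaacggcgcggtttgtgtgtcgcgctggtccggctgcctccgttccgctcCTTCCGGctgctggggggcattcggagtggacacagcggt
Mrpl55: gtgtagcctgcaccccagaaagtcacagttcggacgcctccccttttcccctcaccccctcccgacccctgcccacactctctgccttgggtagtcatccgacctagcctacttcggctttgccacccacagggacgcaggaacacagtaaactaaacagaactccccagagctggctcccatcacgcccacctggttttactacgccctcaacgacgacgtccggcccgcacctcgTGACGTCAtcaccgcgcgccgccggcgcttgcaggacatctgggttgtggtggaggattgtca
The window of Mrps31 held 1 ETS match, that of Mrpl49 held 1 YY1 match, that of Mrpl30 held 1 NRF-1 and 1 ETS match (the latter read as CTTCCGG on the strand shown), and that of Mrpl55 held 1 CRE.

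Over the 60 windows of these 58 genes, the ETS letters were found in 33.3%, against 8.75% of all 33469 windows of the same length. The YY1 letters were found in 15 of the members' 60 windows against 3.17% of all windows, and the NRF-1 letters in 21.7% against 8.98%. For the CRE the shares were 1.67% and 1.83%, Mrpl55 being the only member with it, and for the C/EBP-ATF letters 0 of the members' windows and 0.795% of all windows. The members' windows also held more G and C, with a median of 55.7% against 51.7%. The windows thus hold the letters for which such promoters are known. These letters do not separate the rise from the falls in the 4 windows printed, since the windows of both Mrps31 and Mrpl30 held an ETS match.

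Mrps31, a mitochondria-specific protein of the small subunit, was the only member that rose. Its log2 values had a lowest, median and highest of 5.59, 5.96 and 6.37 in the 12 vehicle livers, and of 6.17, 7.03 and 7.52 in the 10 treated livers. Of the treated livers, 8 lay above every vehicle liver, and the other two, replicates 20 and 24, lay within the vehicle range. Its mean rose from 5.97 ± 0.25 to 6.95 ± 0.49 (SD, n = 12 and 10), a log2 difference of 0.99 ± 0.15 (SE), or 1.98-fold (limma, adjusted p = 4.05e-05). No other member changed by 1.5-fold or more. Without each array in turn Mrps31 kept its call, but with 5 surrogate variables added to the fit its adjusted p was 0.0578.

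The next largest positive differences did not pass. Mrpl47, a large-subunit protein at the exit of the peptide tunnel, had medians of 6.09 in vehicle and 6.52 in treated livers, with a difference of 0.36 ± 0.14 (limma, adjusted p = 0.112), and 10 of 10 treated livers lay above the vehicle median. Mrps28, a small-subunit protein, had medians of 5.60 and 5.85 and a difference of 0.26 ± 0.09 (adjusted p = 0.0588), with 9 of 10 treated livers above the vehicle median. Mrps28 lay close to the threshold and passed after median centring, after quantile normalisation and after cyclic loess normalisation (adjusted p of 0.0467, 0.0369 and 0.0416), and also when only genes with a mean of at least 5 were tested (0.0361). It also passed without vehicle replicate 4 or 9 or GSK932121A replicate 17 or 20, with an adjusted p down to 0.0092, and Mrpl47 passed without vehicle replicate 4 or 12, down to 0.0445. The other positive differences named by rule were small: 0.13 for Mrpl41l1, 0.12 for Mrps10, 0.08 for Mrpl27, 0.07 for Mrpl3 and 0.06 for Mrps18a.

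Among large-subunit genes, Mrpl49, a mitochondria-specific protein, had the largest fall of the 8. Its lowest, median and highest values were 5.58, 6.12 and 6.43 in vehicle and 5.37, 5.64 and 5.89 in treated livers. All 10 treated livers lay below the vehicle median and 5 below every vehicle liver, while the ranges overlapped. It fell 1.38-fold, with a difference of -0.47 ± 0.10 (SE; limma, adjusted p = 0.0019). Mrpl30 had values of 6.72, 6.86 and 7.49 in vehicle and 6.31, 6.60 and 6.75 in treated livers, of which 7 lay below every vehicle liver. This homologue of a bacterial large-subunit protein fell 1.28-fold (-0.36 ± 0.09, adjusted p = 0.00523). For Mrpl55, also a homologue of a bacterial protein, the values were 5.80, 6.08 and 6.22 in vehicle and 5.54, 5.75 and 6.02 in treated livers. Again 7 of 10 treated livers were below the vehicle range, and the gene fell 1.26-fold (-0.33 ± 0.07, adjusted p = 0.00114).

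The remaining falls of the large subunit were smaller. Their adjusted p lay closer to 0.05, and their calls ended when any 1 of several arrays was left out. Mrpl1 builds the mobile stalk past which the used tRNA leaves. Its values were 7.52, 8.01 and 8.37 in vehicle and 7.28, 7.70 and 8.08 in treated livers, only 2 of which lay below every vehicle liver (1.24-fold, -0.30 ± 0.10, limma adjusted p = 0.0403). Mrpl32, which a mitochondrial protease trims before it joins the subunit, had values of 7.07, 7.22 and 7.52 in vehicle and 6.84, 7.05 and 7.20 in treated livers (1.16-fold, -0.21 ± 0.07, adjusted p = 0.0337). Mrpl13, another homologue of a bacterial protein, had values of 6.54, 6.69 and 6.92 in vehicle and 6.27, 6.48 and 6.79 in treated livers (1.16-fold, -0.21 ± 0.07, adjusted p = 0.0400). For Mrpl32 and Mrpl13, 7 and 6 of 10 treated livers lay below every vehicle liver. Leaving out 1 array ended the call of Mrpl1 for 12 of the 22 arrays (vehicle replicates 1, 2, 4, 5, 7, 9 and 12, GSK932121A replicates 13, 14, 16, 17 and 23; highest adjusted p 0.0895, without replicate 13). That of Mrpl13 ended for 12 arrays (vehicle replicates 5 to 11, GSK932121A replicates 14, 18, 21, 22 and 24; up to 0.0828, without replicate 14), and that of Mrpl32 for 6 (vehicle replicates 2, 4 and 5, GSK932121A replicates 13, 16 and 18; up to 0.0715, without replicate 13). With cyclic loess normalisation the adjusted p was 0.057 for Mrpl1, 0.128 for Mrpl13 and 0.0587 for Mrpl32, and after median centring it was 0.07 for Mrpl13 and 0.0507 for Mrpl32. Mrpl13 did not pass either after quantile normalisation (0.0927) or with array weights (0.0561), and Mrpl1 did not pass by a test allowing unequal variances (0.0607) or the Wilcoxon rank sum test (0.0685).

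In the small subunit, Mrps21 and Mrps15, both homologues of bacterial proteins, fell. Mrps21 had values of 6.35, 6.69 and 7.05 in vehicle and 6.12, 6.32 and 6.79 in treated livers, of which 6 lay below every vehicle liver (1.25-fold, -0.32 ± 0.09, limma adjusted p = 0.0182). The copy Mrps21l had a difference of -0.22 ± 0.11 (adjusted p = 0.221), and whether its probes also read Mrps21 transcripts was not tested. Mrps15 had values of 6.83, 7.11 and 7.30 in vehicle and 6.65, 6.85 and 7.06 in treated livers, of which 4 lay below every vehicle liver (1.16-fold, -0.21 ± 0.06, adjusted p = 0.0275). Its call ended with cyclic loess normalisation (adjusted p = 0.066), without vehicle replicate 2 and without GSK932121A replicate 13 (up to 0.0619). Larger differences with wider spread did not pass, namely -0.28 ± 0.17 for Mrps33 and -0.27 ± 0.16 for Mrps24. The values of Mrps24 ran from 8.48 to 9.73 in vehicle and from 8.49 to 9.47 in treated livers, so the groups overlapped almost fully.

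**Figure D2:**
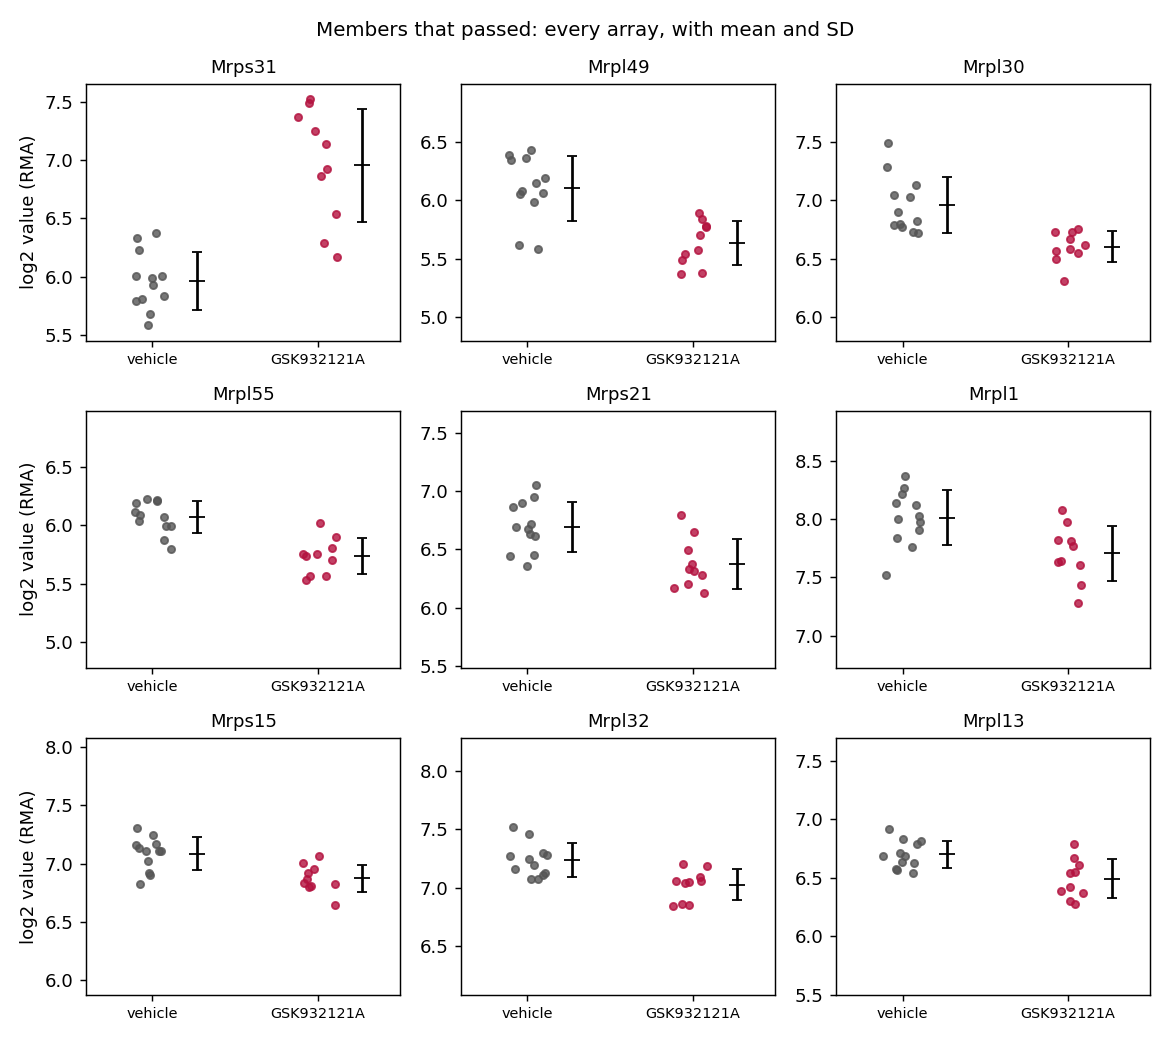
Log2 values (y axis, RMA) of the 9 members that passed, with 1 point per liver and the mean and SD beside the 12 vehicle and 10 GSK932121A livers; every panel spans the same height. In Mrps31, 8 of 10 treated livers lie above the vehicle range, whereas in the 8 falling genes between 2 and 7 treated livers lie below it.

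The 8 falls were unevenly spread over the treated livers. In replicates 13, 14, 16 and 18, 6 of the 8 genes lay below every vehicle liver. In replicate 20 only 1 did. Replicate 20 was also among the treated livers in which Mrps31 lay within the vehicle range. In replicate 24, the other such liver, 3 of the 8 genes lay below every vehicle liver. The count was also 3 in replicate 21, where Mrps31 was at 7.13. The 8 genes were named by their falls in these same livers.

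Large and small subunits showed a like shift. The median difference was -0.09 over the 45 Mrpl genes, of which 0 rose, 6 fell (13.3%) and 39 had a difference below 0. It was -0.10 over the 27 Mrps genes, of which 1 rose (3.70%), 2 fell (7.41%) and 21 had a difference below 0. Over all genes 5.31% rose and 7.05% fell. In limma 10 Mrpl genes (22.2%) had an unadjusted p under 0.05, against 24.0% of all genes, and the count of 0 Mrpl rises held after each of the 3 normalisations as well, since the added call there was Mrps28. Symbols do not always give the position: Mrps30 (-0.07) and Mrps18a (0.06) sit in the large subunit, and the gene copies Mrpl41l1 and Mrps21l are given no position here. By position, the median was -0.09 over 46 large-subunit genes and -0.11 over 24 small-subunit genes, with 6 and 2 falls (13.0% and 8.33%). Within a liver, the median deviation of the Mrpl genes from the vehicle mean minus that of the Mrps genes ran from -0.09 to 0.13 in vehicle and from -0.11 to 0.07 in treated livers, so these ranges overlapped. The difference between the subunits was not tested.

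By origin, the 42 proteins with bacterial homologues had 7 falls (16.7%), 0 rises and a median difference of -0.12. Of these, 11 (26.2%) had an unadjusted p under 0.05 in limma. The 28 mitochondria-specific proteins had 1 fall (3.57%), 1 rise (3.57%) and a median of -0.08, and 3 (10.7%) had such a p. Over all genes 7.05% fell, 5.31% rose and 24.0% had such a p. The difference between these classes was not tested. Members known for special functions did not pass. Mrpl12, a stalk protein that contacts translation factors, had a difference of -0.12 ± 0.10, and Mrpl58, a peptidyl-tRNA hydrolase built into the large subunit, one of -0.09 ± 0.07. The Mrps18 paralogues, which occupy different places in the ribosome, had differences of 0.06 (Mrps18a), -0.12 (Mrps18b) and -0.16 (Mrps18c). Among the genes named for their signal, Mrps6 had a vehicle mean of 4.53, below the array medians, and a difference of -0.15, Mrpl42 had a difference of -0.14 and Mrpl37 one of -0.01, whose sign turned with the normalisation. Levels of different probe sets depend on their probes as well as on the transcript, so the genes are not ranked by level.

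Genes of like signal were set beside the members, because differences below 0 were more common among bright genes throughout the data. In the band with a vehicle mean from 6 to 7, the 25 members had a median difference of -0.12 and 20.0% fell, against -0.04 and 11.9% for 2848 other genes. Below 6 the medians were -0.06 over 18 members and 0.01 over 11079 other genes, and 0 members and 2.91% of the others fell. From 7 to 8 the medians were -0.10 over 17 members and -0.06 over 1941 others, with 11.8% and 15.4% falling. From 8 upwards they were -0.11 over 12 members and -0.07 over 2226 others, with 8.33% and 14.1% falling. Members thus had the lower median in each of the 4 bands, but a larger share of falls in the band from 6 to 7 alone and a smaller share in the other 3. Taken gene by gene, 51 of the 72 members lay below the median of all other genes within 0.25 of their own vehicle mean, and the median gap was -0.06. These gaps are descriptions of this comparison, with no test, and the members share their livers.

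**Figure D3:**
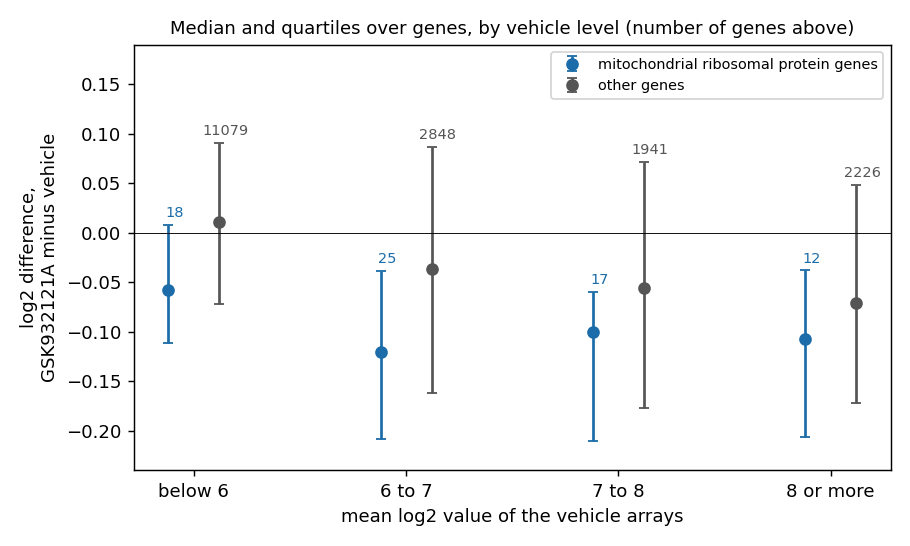
Median log2 difference between GSK932121A and vehicle (y axis; bars show the quartiles over genes) in 4 bands of the vehicle mean (x axis), for mitochondrial ribosomal protein genes in blue and all other genes in grey, with the number of genes above each bar. The blue median lies below the grey median in each band, and the quartile ranges overlap.

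Seen liver by liver, the median deviation of the 72 members from their vehicle means ran from -0.16 to 0.19 in vehicle livers (SD 0.10, n = 12). In treated livers it ran from -0.26 to 0.01 and was below 0 in 9 of 10. The lowest values, -0.26, -0.23 and -0.18, belonged to GSK932121A replicates 13, 16 and 23. The groups overlapped, and the shift between their means was about as large as the spread among vehicle livers. Over all genes the same measure lay between -0.02 and 0.02 in every liver. The SD among treated livers exceeded that among vehicle livers for 34.7% of the members, against 50.9% of all genes. It did so for 22.6% of 31 complex I subunit genes and 32.7% of 55 cytosolic ribosomal protein genes, so this was not particular to the members.

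**Figure D4:**
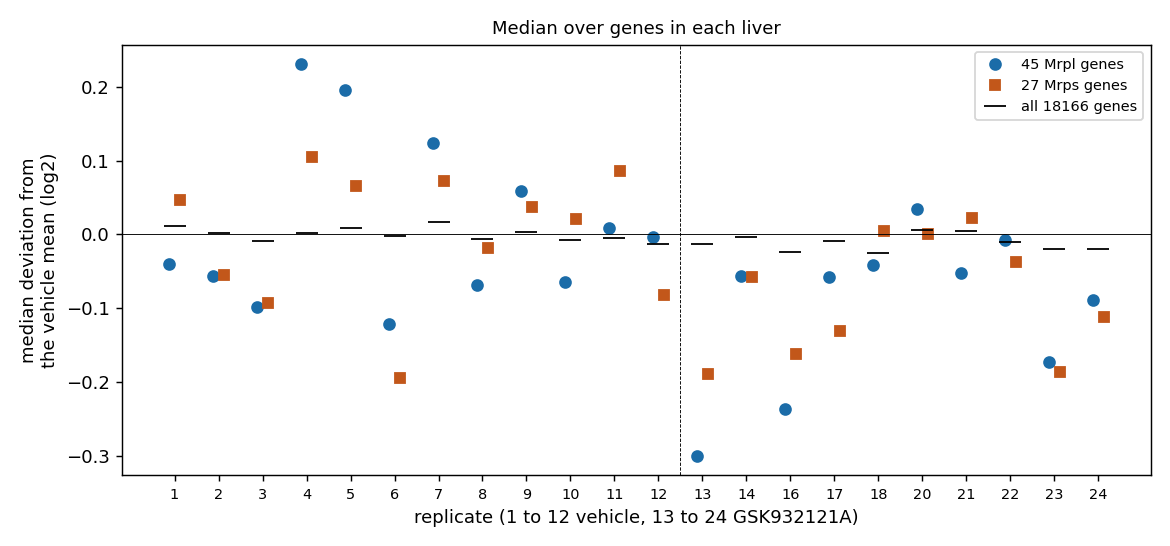
Median deviation from the vehicle mean (y axis, log2) in each liver (x axis, replicate number from the labels) over 45 Mrpl genes (blue circles), 27 Mrps genes (orange squares) and all 18166 genes (black dashes). Treated livers reach lower values than vehicle livers for the members, while the groups overlap and the dashes stay near 0.

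The count of calls among the members moved with the fit. After median centring 2 members rose and 6 fell, against 5.77% and 6.17% of all genes, and after quantile normalisation 2 rose and 7 fell, against 5.64% and 6.84%. With cyclic loess normalisation 2 rose and 4 fell, against 6.16% and 5.51%. With 5 surrogate variables, which stand for unlabelled variation between livers and accounted for 45.5% of the variance of group, 0 members passed in limma against 3.32% of all genes, and 12 of the 72 had an unadjusted p under 0.05 against 16.0% of all genes. A gene-by-gene test allowing unequal variances and the Wilcoxon rank sum test, also adjusted over all genes, each called 1 rise and 7 falls. A limma test against a 1.2-fold change called 1 member, Mrps31, and 0 falls, where the plain test called 8. The fall count was 5 without vehicle replicate 2, vehicle replicate 5 or GSK932121A replicate 13. The rise count was 3 without vehicle replicate 4 and 2 without vehicle replicate 9 or 12 or GSK932121A replicate 17 or 20. For the gene-by-gene tests, the test against 1.2-fold and the fits without 1 array, the share of all genes called is not given here. Their counts are thus not read as a result about the members.

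Proteins that serve the mitochondrial ribosome were measured on the same arrays. Of 14 measured translation factors and partners, 4 fell (28.6%, against 7.05% of all genes) and 0 rose (against 5.31%), with a median difference of -0.14. In limma 6 (42.9%) had an unadjusted p under 0.05, against 24.0% of all genes. Mtfmt, which formylates the initiator tRNA, had values of 6.43, 6.58 and 6.77 (lowest, median and highest) in vehicle and 5.95, 6.10 and 6.43 in treated livers, all 10 of which lay below every vehicle liver. It fell 1.39-fold (-0.48 ± 0.06, adjusted p = 1.28e-05), a difference close in size to that of Mrpl49. Mtrf1l, a release factor, had values of 6.19, 6.38 and 6.73 in vehicle and 5.73, 6.04 and 6.23 in treated livers and fell 1.34-fold (-0.42 ± 0.08, adjusted p = 0.000913). Its adjusted p was 0.071 with 5 surrogate variables. Taco1, a translational activator of cytochrome c oxidase synthesis, fell by 0.22 on the log2 scale (adjusted p = 0.0189, and 0.0545 with cyclic loess normalisation). Mtrfr, which rescues stalled ribosomes, fell by 0.26 (adjusted p = 0.0482). The call of Mtrfr ended without any 1 of 14 arrays (highest adjusted p 0.106, without GSK932121A replicate 13), as well as after median centring, quantile and cyclic loess normalisation (0.0607, 0.0558 and 0.0651), with array weights and with both gene-by-gene tests.

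Of 32 measured assembly and rRNA-modifying factors, 4 fell (12.5%, against 7.05% of all genes) and 2 rose (6.25%, against 5.31%). Their median difference was -0.08, and 13 (40.6%) had an unadjusted p under 0.05 in limma, against 24.0% of all genes. The falls were those of Rpusd4, a pseudouridine synthase (-0.34 ± 0.09, limma adjusted p = 0.0118), Mettl17, a small-subunit assembly factor (-0.34 ± 0.08, 0.00478), Fastkd5, an RNA-processing protein (-0.29 ± 0.09, 0.0309), and Mrm2, an rRNA methyltransferase (-0.28 ± 0.08, 0.0136). Another rRNA methyltransferase, Mrm3, rose (0.25 ± 0.07, adjusted p = 0.0133), with 8 of 10 treated livers above every vehicle liver, so enzymes of like function moved in opposite directions. Afg3l2, a subunit of the inner-membrane protease that trims the product of Mrpl32, rose by 0.19 (adjusted p = 0.0407). The call of Afg3l2 ended without any 1 of 13 arrays (up to 0.0809, without GSK932121A replicate 21). That of Fastkd5 ended without any 1 of 5 (vehicle replicates 8 and 10, GSK932121A replicates 14, 18 and 23; up to 0.0634, without replicate 23) and with quantile and cyclic loess normalisation (0.0522 and 0.0668). The 5 mitochondrial ribosomal proteins with other symbols, Dap3, Chchd1, Ptcd3, Aurkaip1 and Gadd45gip1, had differences between -0.06 and 0.06. Of these, 0 passed in limma and 0 had an unadjusted p under 0.05.

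For mitochondrial transcription and mRNA handling, 2 of 19 measured genes rose and 2 fell (10.5% each, against 5.31% and 7.05% of all genes). Their median difference was 0.01, and 9 (47.4%) had an unadjusted p under 0.05 in limma, against 24.0% of all genes. Trmt10c, a subunit of mitochondrial RNase P (0.29 ± 0.08, limma adjusted p = 0.021), and Mtpap, the mitochondrial poly(A) polymerase (0.24 ± 0.06, 0.00711), rose. Ptcd2, an RNA-binding protein involved in cytochrome b transcript processing (-0.34 ± 0.09, 0.0118), and Tefm, the mitochondrial transcription elongation factor (-0.23 ± 0.07, 0.0397), fell. The call of Tefm ended without any 1 of 12 arrays (up to 0.0823, without GSK932121A replicate 16) and after median centring, quantile and cyclic loess normalisation (0.0655, 0.0595 and 0.0589) and by the Wilcoxon rank sum test (0.0585). With 5 surrogate variables 0 of the named genes of these 3 lists passed, apart from Mtfmt, and with the test against a 1.2-fold change none of them passed, Mtfmt included (0.0734).

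Beside the members, 31 complex I subunit genes had 1 rise (3.23%), 2 falls (6.45%) and a median difference of -0.09. The 55 cytosolic ribosomal protein genes had 1 rise (1.82%), 3 falls (5.45%) and a median of -0.08. Over all genes 5.31% rose and 7.05% fell. Differences were below 0 in 23 of the 31 and 37 of the 55, so medians of like size were seen in both lists. The lists were brighter than the members, with median vehicle means of 8.51 (complex I) and 8.32 (cytosolic ribosome) against 6.70. Other genes had a median difference of -0.07 at a vehicle mean of 8 or more and of -0.04 from 6 to 7, so like medians do not mean like gaps to genes of like signal. No test of the difference between these lists and the members was made.

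Of 46 measured cell type markers in 8 lists, 2 rose and 0 fell, while 5.31% of all genes rose and 7.05% fell. The 2 were Cd163 (0.36, limma adjusted p = 0.0046) and Lyve1 (0.22, 0.0201). With 5 surrogate variables their adjusted p was 0.2 and 0.0922, and neither passed the test against a 1.2-fold change. The mean level of the 6 hepatocyte markers measured lay between 11.5 and 11.7 in both groups. That of the 8 Kupffer cell markers lay between 7.36 and 7.98 in vehicle and between 7.44 and 7.97 in treated livers, and that of the 4 endothelial markers between 7.92 and 8.24 and between 8.00 and 8.23. The 6 stellate cell markers lay between 6.53 and 7.22 in vehicle and between 6.64 and 7.59 in treated livers. Among them Dcn had a difference of 0.49 and Col1a1 one of 0.22 (limma adjusted p of 0.511 and 0.125). Differences in this list went both ways, with 3 below 0 (lowest -0.12) and 3 above. The 8 lymphocyte markers lay between 5.25 and 5.55 and between 5.20 and 5.59. Of these 8, 4 (50.0%) had an unadjusted p under 0.05 in limma, against 24.0% of all genes, and 0 passed after adjustment. Those 4 had differences of 0.35 (Nkg7), 0.25 (Cd8a), -0.22 (Cd79a) and -0.17 (Ms4a1). The cholangiocyte markers lay between 4.36 and 4.90 and between 4.39 and 5.18, and the neutrophil markers between 3.72 and 4.27 and between 3.75 and 4.61. Of these, 4 of 6 cholangiocyte and 5 of 6 neutrophil markers lay below every array median, as did 2 of 2 erythroid markers. Some of these differences exceed the members' median in size, and these named markers were chosen after their values were seen. Their part in the members' differences was not tested.

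Among genes listed here as regulators of mitochondrial biogenesis, the coactivators of the PGC-1 family and Myc rose. Of 11 measured, 4 rose (36.4%, against 5.31% of all genes): Ppargc1a (PGC-1alpha, 8.18-fold, limma adjusted p = 3.9e-07), Myc (3.09-fold), Ppargc1b (2.60-fold) and Pprc1 (1.32-fold), each with all 10 treated livers above the vehicle median. Sirt3, a mitochondrial deacetylase, fell by 0.29 on the log2 scale (adjusted p = 0.0325), a call that ended without any 1 of 10 arrays (up to 0.0679, without GSK932121A replicate 18) and with quantile and cyclic loess normalisation (0.051 and 0.0501), array weights (0.0586), the Wilcoxon rank sum test (0.0585), 5 surrogate variables (0.391) and the test against a 1.2-fold change. The DNA-binding factors whose letters were searched did not pass, with differences of -0.004 for Nrf1, 0.02 for Gabpa, -0.37 for Gabpb1 and -0.13 for Yy1, and Esrra had one of 0.0004. Their transcripts say nothing of the activity of the proteins.

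Mrps31 was then set against each of these 11 regulators within each group, 22 relations in all, a step chosen after its values were seen. In the 10 treated livers Mrps31 and Ppargc1a had a Pearson r of 0.93 (permutation p = 0.00022, 0.00484 after Benjamini-Hochberg adjustment over 22) and a Spearman rho of 0.84 (permutation p = 0.00357, adjusted 0.0409). Without the 2 livers farthest from the median of Ppargc1a, r was 0.85 (n = 8, exact permutation p = 0.00719). A gap in Ppargc1a separates 3 treated livers, replicates 20, 24 and 17 (7.24, 7.63 and 8.35), from the other 7 (9.38 to 10.4). The same 3 livers had the lowest Mrps31 among treated livers (6.29, 6.17 and 6.54). Within the other 7, r was 0.66 and rho 0.57 (exact permutation p = 0.113 and 0.2), over fewer livers and a narrower range of Ppargc1a. In the 12 vehicle livers r was 0.02 (permutation p = 0.947).

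Myc had the same rho as Ppargc1a. For Myc in treated livers r was 0.81 (permutation p = 0.00533, adjusted 0.0586) and rho 0.84 (permutation p = 0.00372, adjusted 0.0409), and without the 2 farthest livers r was 0.71 (n = 8, exact permutation p = 0.0503). For Ppargc1b r was 0.76 (permutation p = 0.0135, adjusted 0.0993), and 0.53 without the 2 farthest livers. For Sirt3 r was -0.44 (permutation p = 0.204, adjusted 0.522), and -0.87 without the 2 farthest livers (n = 8, exact permutation p = 0.00625). Among all 18165 other genes, 185 had an r with Ppargc1a above 0.8 in the treated livers and 10 an r at least as high as that of Mrps31. The other 71 members did not share the pattern: their r with Ppargc1a ran from -0.83 (Mrpl51) to 0.71 (Mrps18a), with a median of -0.20 against -0.03 over all genes.

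**Figure D5:**
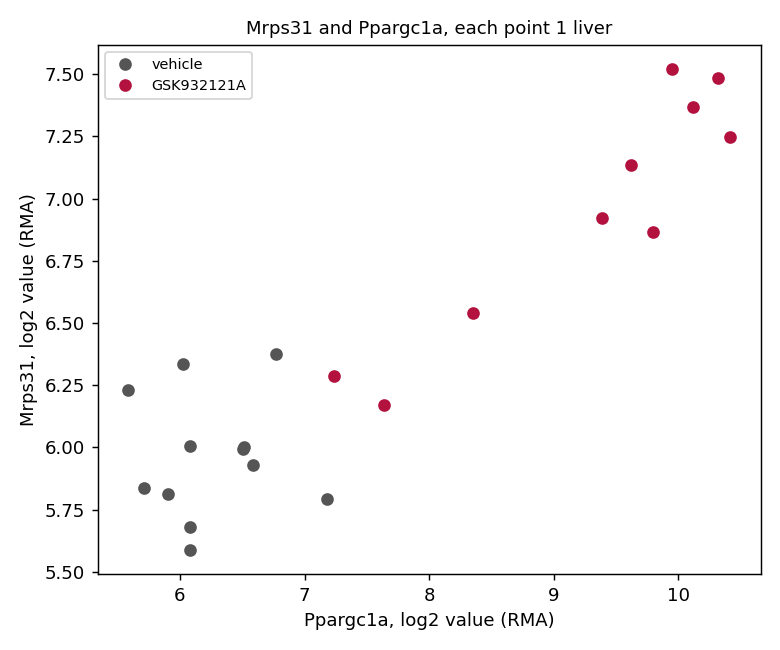
Log2 value (RMA) of Mrps31 (y axis) against that of Ppargc1a (x axis), with 1 point per liver, for 12 vehicle (grey) and 10 GSK932121A livers (red). Among treated livers 3 lie apart at low values of both genes, and r is 0.93 over all 10 and 0.66 over the other 7.

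Several members start close to a gene that runs the other way. By RefSeq, 18 members had such a head-to-head neighbour within 1 kb, and 16 of these 18 pairs had both genes measured, with Mrpl46 and Mrps11 facing each other and counted from both sides. The neighbours not measured were LOC120097532, which faces Mrps31, the only member that rose, and Cyb5rl, which faces Mrpl37. LOC120097532 starts 93 bases from the start of Mrps31 used here, which lies inside the RefSeq span of Mrps31. Its facing was counted from that start alone. Of the measured neighbours, 2 rose and 1 fell, and 3 members of such pairs fell, and in 0 of the 16 pairs did both genes pass in limma. With 12.4% of all genes passing, few such pairs would be found at the overall share, so nothing is read from this count. Ppp1r10, a regulatory subunit of a protein phosphatase that faces Mrps18b, rose 1.77-fold (adjusted p = 6.41e-07) with all 10 treated livers above the vehicle range, whereas Mrps18b had a difference of -0.12. Pnpla7, a lysophospholipase that faces Mrpl41, rose 1.41-fold (adjusted p = 0.000482, and 0.116 with 5 surrogate variables), whereas Mrpl41 had one of -0.10. The neighbour that fell was Ptcd2, which faces Mrps27 (-0.06). Facing the falling members, Mitd1 beside Mrpl30 had a difference of -0.18, Fau beside Mrpl49 one of -0.14 and Psma2 beside Mrpl32 one of 0.05, none of which passed. These neighbours were named after their values were seen.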

How the data were processed

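RNA from 22 livers, each on 1 Affymetrix whole-transcript array, gave the deposited log2 values, made with RMA per the submitters' processing notes. RMA corrects background, normalises between arrays and summarises probes, so a shift common to all genes cannot be seen and differences of dim genes are compressed. For the software and the probe set definition, the sources used here give nothing. Of 36685 probe sets, 18511 had 1 symbol in the platform annotation, 575 several and 17599 none. Of the first, 18394 matched the gene table by Entrez identifier, with 0 symbols changed. The probe set with the highest mean stood for each of 18166 genes. The number of arrays limits the precision. Nothing in the labels marks a litter, batch or date, and the groups share no replicate numbers.

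Groups were compared in limma 3.58.1 (R 4.3.3) with group alone, two-sided, with Benjamini-Hochberg adjustment over all genes, tested on simulated data. A fold is 2 raised to the log2 difference. Tables, correlations and plots were made in Python 3.11.15 (scipy 1.17.1, pandas 2.3.3, numpy 2.4.6, matplotlib 3.10.9), with 100000 resamples per correlation, or every pairing under 10 livers. The rule named every member that passed, the 4 largest differences each way and the brightest and dimmest member by subunit, Mrpl12, Mrps30, the Mrps18 genes and Mrpl58, and up to 5 genes of each list that passed. The members and lists were chosen with earlier results of these data known. Alternatives were 3 normalisations, filters at a mean of 5 or 7, the mean of probe sets, trend and robust settings, array weights, 5 surrogate variables, a test against 1.2-fold, unequal-variance and Wilcoxon tests, subunit by position, and each array left out.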

Additional observations from a re-analysis of the deposited data

Results flagged for a closer look

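Among the treated livers, 5 of 59 gene series examined had a lowest or highest liver farther from the rest than Dixon's 95% limit for 10 livers, where chance gives about 1 in 20. Mrpl37 had its lowest treated value, 8.43, in GSK932121A replicate 13, with the next at 8.72. Mrps10 had its highest, 6.14, in the same liver, with the next at 5.77. Mrps18b had its lowest, 6.38, in replicate 23, with the next at 6.75. Mrps18c had its lowest, 8.14, in replicate 16, with the next at 8.43. Dap3, a mitochondrial ribosomal protein with another kind of symbol, had its lowest, 6.18, in replicate 21, with the next at 6.51. None of these genes passed in the comparison of groups (limma with Benjamini-Hochberg adjustment).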

How the results depend on the processing

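Of the 72 members, 9 passed as reported, and 3 passed among genes with a mean of at least 7, 0 with 5 surrogate variables and 1 against a 1.2-fold change. Rises numbered 1 as reported, 2 after median centring, quantile normalisation, cyclic loess normalisation or with a mean of at least 5, and 0 with a mean of at least 7 or with surrogate variables. Falls numbered 8 as reported, 4 with cyclic loess normalisation, 3 with a mean of at least 7, and 0 with surrogate variables or against 1.2-fold. The filter at 7 removed Mrps31 before the test, and of the 8 genes that fell it kept only Mrpl1 and Mrpl32, so its counts do not show calls that failed. Without each array in turn, 6 to 11 passed, 1 to 3 rose and 5 to 9 fell, and the median difference lay between -0.11 and -0.07 (Mrpl) and between -0.13 and -0.08 (Mrps). The filters leave fewer genes, and otherwise the cause was not tested. The share of all genes called is not given for the filters, the test against 1.2-fold or the fits without 1 array. The calls of Mrps31, Mrpl49, Mrpl30, Mrpl55 and Mrps21 held without each of the 22 arrays. The r of Mrps31 and Ppargc1a was 0.66 in the 7 treated livers with the most Ppargc1a, a setting chosen after seeing the data, and 0.91 to 0.96 without each treated liver. Small differences turned sign: Mrpl37 to 0.0039 (median centring), 0.037 (cyclic loess), 0.0070 (array weights) and 0.124 (surrogate variables), Mrps18a to -0.051 and Mtrfr to 0.0045 (surrogate variables), and Aurkaip1 to 0.0088 (cyclic loess) and 0.036 (surrogate variables). Without 1 array Mrpl37 ran from -0.031 to 0.033, Aurkaip1 from -0.067 to 0.025, Chchd1 from -0.051 to 0.129 and Ptcd3 from -0.0066 to 0.068. No paired analysis was possible because the groups share no replicate numbers. Signals below the array medians, as that of Mrps6, limit what can be seen.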
